A study of Mus musculus with 3 samples.

Results

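Nfe2l2, the gene of the transcription factor Nrf2, and 9 genes of antioxidant proteins (Nqo1, Hmox1, Gpx1, Gpx2, Prdx1, Prdx5, Txn1, Sod1 and Cat) were examined in 3 epithelial lineages of the mouse stomach. They were taken by gene symbol, with every probe set that names 1 gene, and 8 of the 10 genes, with 15 probe sets, could be followed among 18194 genes in all. Prdx1 was represented by 5 probe sets that each name a further gene as well, and no probe set naming Prdx5 was in the gene table, so neither was analysed here.

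The lineages were acid-secreting parietal cells, zymogenic (chief) cells that make digestive enzymes, and mucus-making pit cells near the opening of the gastric unit. Cells were cut from stomach sections by laser, 3000 to 5000 per lineage from 4 to 5 mice, and the pooled RNA (20 ng) was amplified and hybridised to 1 Affymetrix whole-genome mouse array per lineage. The labels give no strain, age, sex or treatment, and no group was a control. Parietal cells were recognised by the lectin DBA and autofluorescence and pit cells by E-cadherin without DBA, both from the upper part of the same units, and zymogenic cells by E-cadherin without DBA or the lectin GSII, from unit bases on other slides after basal parietal cells had been removed. Effects of slide and of lineage therefore cannot be told apart where zymogenic cells are compared. With 1 array of pooled RNA per lineage there is no replicate error and no test between lineages, and all differences below describe these 3 arrays.

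Parietal cells are packed with mitochondria, and cells that respire make superoxide and hydrogen peroxide as by-products. Superoxide dismutases turn superoxide into hydrogen peroxide, and catalase, glutathione peroxidases and peroxiredoxins break the peroxide down, the peroxidases and peroxiredoxins with electrons that come from NADPH through glutathione and thioredoxin. Nrf2 is held low by Keap1, which passes it to a ubiquitin ligase; under oxidants or electrophiles it escapes, pairs with small Maf proteins and binds antioxidant response elements near genes such as Nqo1, Hmox1 and Gclm. Because Nrf2 is regulated largely through its breakdown, the RNA level of Nfe2l2 does not give its activity.

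The core of the antioxidant response element, TGACNNNGC on either strand, was looked for in the RefSeq promoter windows of these genes (build GRCm38.p6, 250 bases before to 50 after the start). Windows were given for 9 of the 10 genes, and 3 of them, Nfe2l2, Prdx1 and Sod1, hold a match, against 12.4% of all 32851 windows. The windows of Nfe2l2 and Sod1 are printed because both genes have values here and hold a match, and that of Nqo1 because it is the standard target gene of Nrf2. Capitals mark the matches, and all 3 read 5′ to 3′ on the strand of the gene. They lie at chr2:75704614-75704913 (minus strand), chr8:107403156-107403455 (minus strand) and chr16:90220512-90220811 (plus strand), in the order printed.
Nfe2l2: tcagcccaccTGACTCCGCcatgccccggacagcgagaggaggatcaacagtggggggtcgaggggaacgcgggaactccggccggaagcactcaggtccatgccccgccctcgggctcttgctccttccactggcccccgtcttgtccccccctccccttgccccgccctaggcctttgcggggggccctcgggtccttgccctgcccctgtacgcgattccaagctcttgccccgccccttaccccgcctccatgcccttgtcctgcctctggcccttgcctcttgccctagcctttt
Nqo1: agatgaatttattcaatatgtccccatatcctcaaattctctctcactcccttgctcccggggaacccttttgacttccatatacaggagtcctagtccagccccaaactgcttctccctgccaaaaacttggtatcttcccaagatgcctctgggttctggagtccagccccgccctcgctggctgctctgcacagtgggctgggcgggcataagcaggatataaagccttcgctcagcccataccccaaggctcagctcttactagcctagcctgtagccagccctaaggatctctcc
Sod1: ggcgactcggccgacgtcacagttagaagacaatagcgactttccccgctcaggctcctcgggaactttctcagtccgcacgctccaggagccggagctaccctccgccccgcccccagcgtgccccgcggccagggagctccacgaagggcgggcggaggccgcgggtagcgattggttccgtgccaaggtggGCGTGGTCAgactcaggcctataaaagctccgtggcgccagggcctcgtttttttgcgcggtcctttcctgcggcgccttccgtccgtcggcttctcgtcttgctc
Counted from the transcription start, the match begins at position -240 in Nfe2l2 and at position -56 in Sod1. A match is a string of letters and shows no binding, and the lack of one in the Nqo1 window says nothing of elements that lie elsewhere.

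Values are probe set intensities on a linear scale. A detection floor of 23.3 was set from 80 probe sets of olfactory and vomeronasal receptors, and lower values were set to it ahead of the log2 step, so that a fold against a value under the floor is a lower bound. The 3′ probe set of the actin control was at 619, 77.0 and 332 for parietal, zymogenic and pit cells and its 5′ probe set at 23.7, 5.23 and 36.8. Those of the Gapdh control were at 198, 47.8 and 92.9 (3′) and at 22.4, 12.3 and 14.0 (5′). Apart from actin on the pit array, all 5′ values lay near or under the floor. The part of RNA amount and quality in the low zymogenic values and the other differences below was not tested. The parietal, zymogenic and pit arrays had 2809, 2285 and 2616 genes above the floor. Over the 1186 genes above it on all 3 arrays, the median gene differed by 0.64 on the log2 scale for parietal minus zymogenic, 0.29 for parietal minus pit and -0.21 for zymogenic minus pit. Scatter between probe sets of the same gene, the only error that can be estimated, had an SD of 0.479 in log2 ratio.

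The labels were checked against cell type markers. The summed intensity of 10 parietal markers, such as the proton pump subunit Atp4b, was 5720 in parietal, 1322 in zymogenic and 366 in pit cells, with 6, 5 and 2 of them above the floor. Atp4b gave most of that sum, at 4402, 793 and 102, and the other pump subunit Atp4a was at 214, 261 and 12.5, Kcnq1 at 29.1, 60.5 and 3.71 and Slc4a2 at 48.6, 54.4 and 13.4, all 3 higher in zymogenic than in parietal cells. The summed intensity of 7 zymogenic markers, such as pepsinogen C, was 565, 15235 and 201, with 4, 6 and 3 of them above the floor. Chia1 and Pgc (pepsinogen C) gave most of that sum, at 9916 and 4593 in zymogenic cells. Pga5 was highest in parietal cells, at 47.6, 30.9 and 12.7, and Dmbt1 in pit cells, at 41.1, 3.34 and 114. Cckbr was near the floor, at 22.3, 24.6 and 27.4. The sum of 8 pit markers, such as Muc5ac and the gastrokines, was 24777 in parietal, 143 in zymogenic and 24634 in pit cells, with 8, 1 and 8 of them above the floor. The sums for parietal and pit cells were thus close, but single pit markers differed both ways. Psapl1 was at 353, 12.1 and 9552, Krt20 at 32.2, 8.83 and 657 and Muc5ac at 425, 14.5 and 1225 for parietal, zymogenic and pit cells, whereas Gkn2 was at 7987, 8.28 and 2723 and Lypd8 at 4723, 9.07 and 1050. In pooled RNA, fewer cells of a type and less RNA per cell cannot be told apart. Red blood cells, which are rich in catalase and peroxiredoxin 2, had summed marker levels of 16.6, 13.1 and 9.78, and each of the 3 markers with a probe set (Hba-a1, Alas2 and Slc4a1, of 5 listed) was under the floor on every array. Of 6 macrophage markers, 3, 1 and 1 were above the floor for parietal, zymogenic and pit cells, with sums of 200.4, 411 and 84.1, and Cd68 and Cd163 were under it on all 3. Csf1r gave most of the zymogenic sum, at 111, 374 and 22.4. The other macrophage markers were under the floor in zymogenic cells and lower there than in parietal cells. Of 6 endocrine markers, 0, 5 and 1 were above the floor, with sums of 39.0, 955 and 65.0. Of 3 mucous neck markers with a probe set, 1, 0 and 2 were above it, with sums of 417, 32.3 and 152, and of 6 fibroblast markers 3, 2 and 1, with sums of 283, 132 and 77.3. Tff2 gave most of the neck sum, at 402, 21.9 and 110, whereas Gkn3 (10.8, 8.56 and 28.7) and Cd44 (3.44, 1.92 and 13.4) were highest in pit cells. Of 4 smooth muscle markers, 1, 2 and 1 were above the floor, with sums of 120, 191 and 119. Fibroblast and neck sums were highest for parietal cells, as Nfe2l2, Txn1 and Sod2 were, and the part of these cell types in the values was not tested.

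Taken by pairs of arrays, 6 of the 8 genes with a probe set (Nfe2l2, Nqo1, Gpx1, Txn1, Sod1 and Cat) were at least 2-fold brighter for parietal than for zymogenic cells, where 24.0% of 3597 genes were, and 0 were at least 2-fold lower, where 8.79% were. Between the parietal and pit arrays, 2 genes (Nfe2l2 and Txn1) were at least 2-fold brighter for parietal cells, against 14.4% of 3441 genes, and 0 were lower, against 7.70%. Between the zymogenic and pit arrays, 0 genes were at least 2-fold brighter for zymogenic cells, against 11.8% of 3624 genes, and 4 (Nqo1, Gpx1, Sod1 and Cat) were lower, against 21.3%. These shares take in genes above the floor on at least 1 array of the pair, whereas Hmox1 and Gpx2 are among the 8 and could not be called.

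Nfe2l2 stood at 139 for parietal cells, 13.6 for zymogenic cells and 23.3 for pit cells. It was clearly above the floor on the parietal array alone, since the pit value lay at the floor and the zymogenic value under it. The parietal array was at least 5.96-fold above the zymogenic array and 5.94-fold above the pit array. These folds rest on 1 of its 2 probe sets, as the other was under the floor on every array, at 4.25, 3.86 and 1.32. Of 1186 genes that passed the floor for every lineage, the 5 whose pattern over the 3 arrays lay nearest to that of Nfe2l2, after the log2 values of each gene were centred on its own mean, were Clu, Agrn, Rps28, Rpl7a and Hspa8, at distances of 0.091 to 0.34 on the log2 scale. With 3 arrays and 2 of the Nfe2l2 values at the floor, that likeness says no more than that these genes were also brightest on the parietal array and near equal on the others. Clu, which encodes the extracellular chaperone clusterin, was the nearest, at 2832, 510 and 471 for parietal, zymogenic and pit cells.

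Of 11 regulators and partners of Nrf2, Keap1 was the 1 gene above the floor, with 49.3 in parietal, 10.9 in zymogenic and 28.8 in pit cells. Its parietal value was at least 2.12-fold the zymogenic value and 1.71-fold the pit value. The other 10, among them the ligase scaffold Cul3, the repressor Bach1 and the small Maf genes Mafg, Mafk and Maff, were under the floor on all arrays, so their levels could not be compared.

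**Figure D1:**
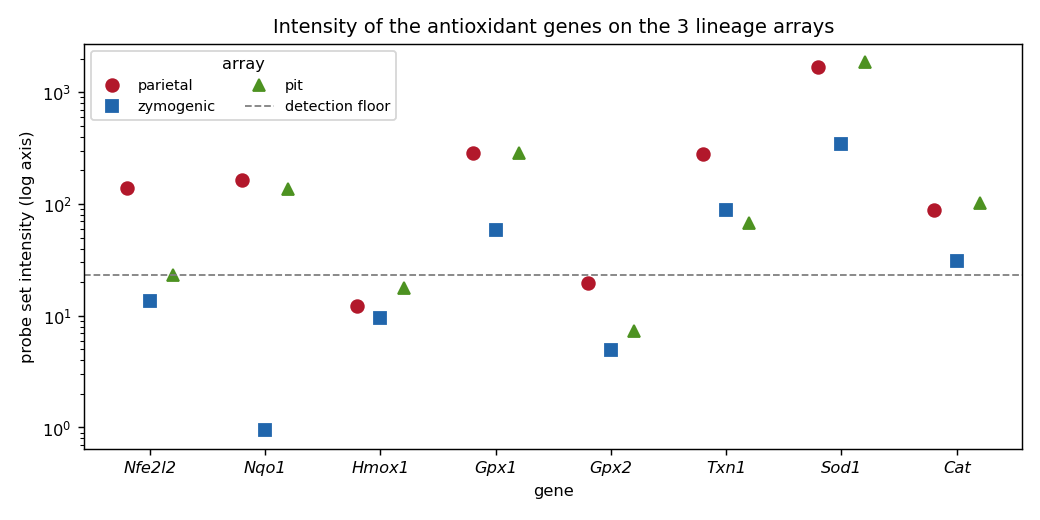
Probe set intensity (log axis) of the 8 genes with a probe set, 1 point per array, with the detection floor of 23.3 as a dashed line. Nqo1, Gpx1, Sod1 and Cat are lowest on the zymogenic array with parietal and pit values close together, Nfe2l2 and Txn1 are highest on the parietal array, and Hmox1 and Gpx2 lie under the floor throughout.

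Nqo1, a quinone reductase and a much used readout of Nrf2, was at 166 for parietal cells, 0.941 for zymogenic cells and 135 for pit cells. Of the 8 genes it had the lowest zymogenic value, well under the floor, while the parietal and pit values lay close together. The parietal array was at least 7.12-fold above the zymogenic array and 1.22-fold above the pit array, and the log2 difference of zymogenic minus pit was -2.54 or lower. Nqo1 has 1 probe set, so no further probe set bears on it.

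Hmox1, heme oxygenase 1, which breaks down heme and is induced by Nrf2 in many cells, had 12.3 in parietal, 9.65 in zymogenic and 17.7 in pit cells. All 3 values were under the floor and no difference is given. High Nqo1 signal on the parietal and pit arrays was thus not matched by measurable Hmox1 signal. Hmox2, the constitutive heme oxygenase, was at 67.9, 30.9 and 39.4, and the ferritin heavy chain Fth1, which stores the iron set free, at 239, 127 and 126 for parietal, zymogenic and pit cells. The parietal value was 2.20-fold and 1.72-fold the zymogenic and pit values for Hmox2, and 1.89-fold and 1.90-fold for Fth1.

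Sod1, the cytosolic copper-zinc superoxide dismutase, was at 1677 for parietal cells, 346 for zymogenic cells and 1854 for pit cells. It was lowest on the zymogenic array, and the parietal and pit values lay close together. The parietal array was 4.84-fold above the zymogenic array, parietal minus pit was -0.14 on the log2 scale, and zymogenic minus pit was -2.42. A further Sod1 probe set showed the same order of zymogenic against the others, with 135, 18.7 and 105, or at least 5.80-fold for parietal over zymogenic. Another was at 25.2, 22.5 and 13.6, too near the floor to show a difference, and the remaining 2 were under the floor on all arrays. The Sod1 probe set with the values above is of a class that can bind more than 1 transcript, and the further one at 135 is of the class specific to 1 transcript.

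Of the other genes that handle superoxide, Sod2, the mitochondrial manganese enzyme, differed from Sod1 in its pattern, with 103, 34.6 and 32.5 for parietal, zymogenic and pit cells. The parietal value was 2.98-fold the zymogenic and 3.17-fold the pit value, and a further probe set was at 71.8, 29.2 and 11.8. Park7, a redox-sensitive protein, had 104, 111 and 50.9 and was lowest on the pit array, as a further probe set at 101, 104 and 30.5 also was. Sod3, the extracellular enzyme, was at 9.53, 24.7 and 22.6, near or under the floor, and Ccs, the copper chaperone of Sod1, was under it on all arrays.

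Cat, catalase of peroxisomes, was at 88.8 for parietal cells, 31.1 for zymogenic cells and 101 for pit cells. As with Sod1, the zymogenic value was the lowest and the other 2 lay close together. Parietal was 2.86-fold above zymogenic, parietal minus pit was -0.19 on the log2 scale, and zymogenic minus pit was -1.71. The further Cat probe set had 24.6, 2.59 and 15.2, with only the parietal value just above the floor, and showed no measurable difference.

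Gpx1, the ubiquitous glutathione peroxidase, a selenoprotein, was at 285 for parietal cells, 58.6 for zymogenic cells and 287 for pit cells. The parietal and pit values were nearly equal, with a log2 difference of -0.012, and parietal was 4.86-fold above zymogenic. Gpx2, the glutathione peroxidase typical of gut epithelium, had 19.7, 4.89 and 7.28 and was under the floor on all arrays. Gpx4, which reduces lipid peroxides in membranes, was at 144, 92.1 and 133 and thus differed by less than 2-fold between any 2 arrays. Its probe set is of a class that can bind other transcripts, and no further Gpx4 probe set was above the floor. The other glutathione peroxidases tested (Gpx3, Gpx6, Gpx7 and Gpx8) were under the floor on every array.

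Txn1, thioredoxin, which passes electrons to peroxiredoxins, was at 279 for parietal cells, 88.6 for zymogenic cells and 68.3 for pit cells. It was highest on the parietal array, while the zymogenic and pit values differed by 0.37 on the log2 scale, less than the scatter between probe sets. Parietal was 3.15-fold above zymogenic and 4.09-fold above pit. The further Txn1 probe set, at 15.4, 5.33 and 8.74, was under the floor throughout.

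**Figure D2:**
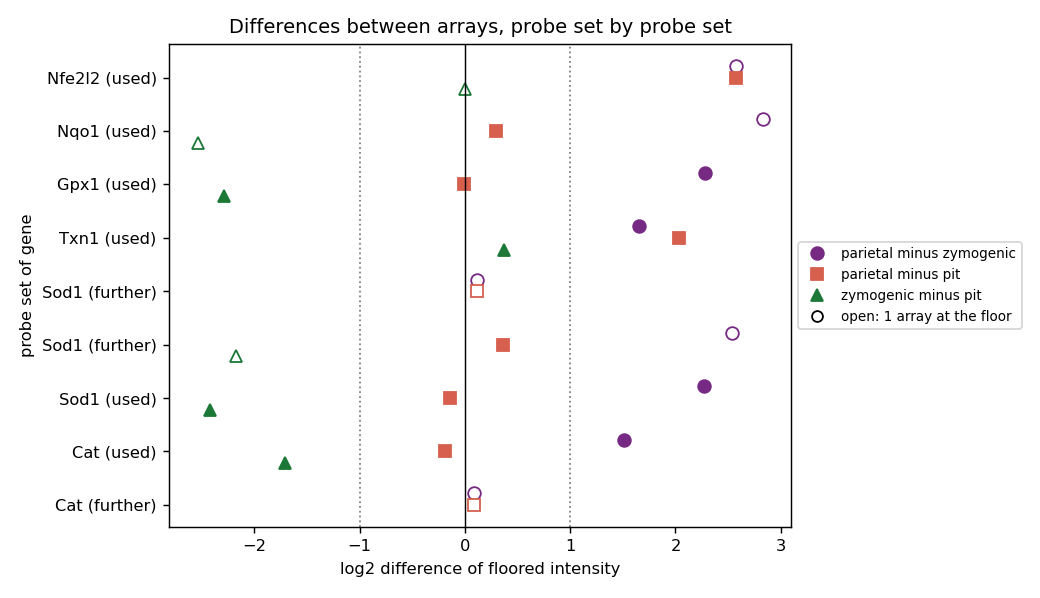
Log2 differences between arrays for the 9 probe sets above the floor on at least 1 array, with dotted lines at 2-fold and open symbols where 1 array is at the floor. Parietal minus pit is near 0 for Nqo1, Gpx1, Sod1 and Cat and above 2 for Nfe2l2 and Txn1, and zymogenic minus pit is below -1.7 for the used probe sets of Nqo1, Gpx1, Sod1 and Cat.

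Peroxiredoxins other than Prdx1 and Prdx5 gave another order of the arrays. Prdx4, the peroxiredoxin of the endoplasmic reticulum, was at 24.0 in parietal, 66.5 in zymogenic and 5.13 in pit cells, highest in zymogenic cells, and a further probe set was at 14.3, 34.7 and 2.13. Prdx2, a cytosolic enzyme, was at 65.1, 56.5 and 25.2 and was lowest on the pit array. Prdx3, of mitochondria, was under the floor on all arrays.

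Of the 11 other genes of the thioredoxin and glutaredoxin system, 7 were above the floor on at least 1 array. Txnrd1, the cytosolic reductase that recharges thioredoxin and a target of Nrf2, was at 48.0, 9.74 and 47.5 for parietal, zymogenic and pit cells. It was lowest for zymogenic cells, as Nqo1 and Gpx1 were. Txnip, which binds thioredoxin and limits it, was at 179, 65.5 and 243. Glrx5, a mitochondrial glutaredoxin needed for iron-sulfur clusters, was at 48.3, 10.5 and 18.9, at least 2.08-fold above both other arrays. Txnl1 had 57.7, 28.0 and 32.2, and Txnrd2, the mitochondrial reductase, 19.8, 27.6 and 37.1.

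Among genes that supply NADPH, Pgd and Tkt were far brighter in parietal than in zymogenic cells. Pgd, 6-phosphogluconate dehydrogenase of the pentose phosphate pathway, was at 1625 for parietal cells, 92.9 for zymogenic cells and 1370 for pit cells, or 17.5-fold for parietal over zymogenic. Tkt, transketolase, was at 1410, 123 and 728, or 11.5-fold for parietal over zymogenic. Both sets are of a class that can bind other transcripts, but a further probe set outside that class was also lowest on the zymogenic array, at 56.9, 4.08 and 64.7 for Pgd and 58.2, 9.13 and 54.3 for Tkt. With zymogenic values under the floor, these give parietal minus zymogenic as at least 1.29 and 1.32 on the log2 scale. They thus show the direction, while the size of the folds rests on sets of that class.

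Idh1, the cytosolic isocitrate dehydrogenase, was at 91.5, 2.65 and 70.0 for parietal, zymogenic and pit cells, and the malic enzyme Me1 was at 37.6, 0.617 and 58.3, both under the floor on the zymogenic array. The Idh1 probe set is of a class that can bind other transcripts, and no further Idh1 probe set was above the floor. Idh2, the mitochondrial form, was at 156, 92.4 and 37.0 and so was lowest on the pit array, where Idh1 was not. Taldo1, transaldolase, was at 88.2, 27.4 and 45.3. For the list as a whole, the median of parietal minus zymogenic was 1.83 and that of zymogenic minus pit -1.46 over 6 genes, beside 0.29 and -0.13 over all genes tested. Of the 7 genes listed, G6pdx had no probe set naming 1 gene. The NADPH medians were the highest and the lowest of any pathway list. Most other lists rest on only 1 to 3 genes, the thioredoxin and glutaredoxin list on 7 and 5, so this order means little. Over all pathway lists together the medians were 0.98 and -0.33. For the other peroxiredoxins they were -0.63 and 1.34, over only 2 genes, and parietal minus zymogenic was 0.21 for Prdx2 and -1.47 for Prdx4.

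For glutathione, Gss, which joins glycine to the dipeptide, had 72.1 in parietal, 8.36 in zymogenic and 66.9 in pit cells. Its probe set is of a class that can bind other transcripts, and no further Gss probe set was above the floor. Slc3a2, the shared heavy chain of amino acid transporters including the cystine carrier, went the other way, with 30.8, 85.0 and 26.6. The other 4 genes of the list with a probe set, among them Gclc and Gclm of the rate-limiting ligase and glutathione reductase Gsr, were under the floor on all arrays.

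**Figure D3:**
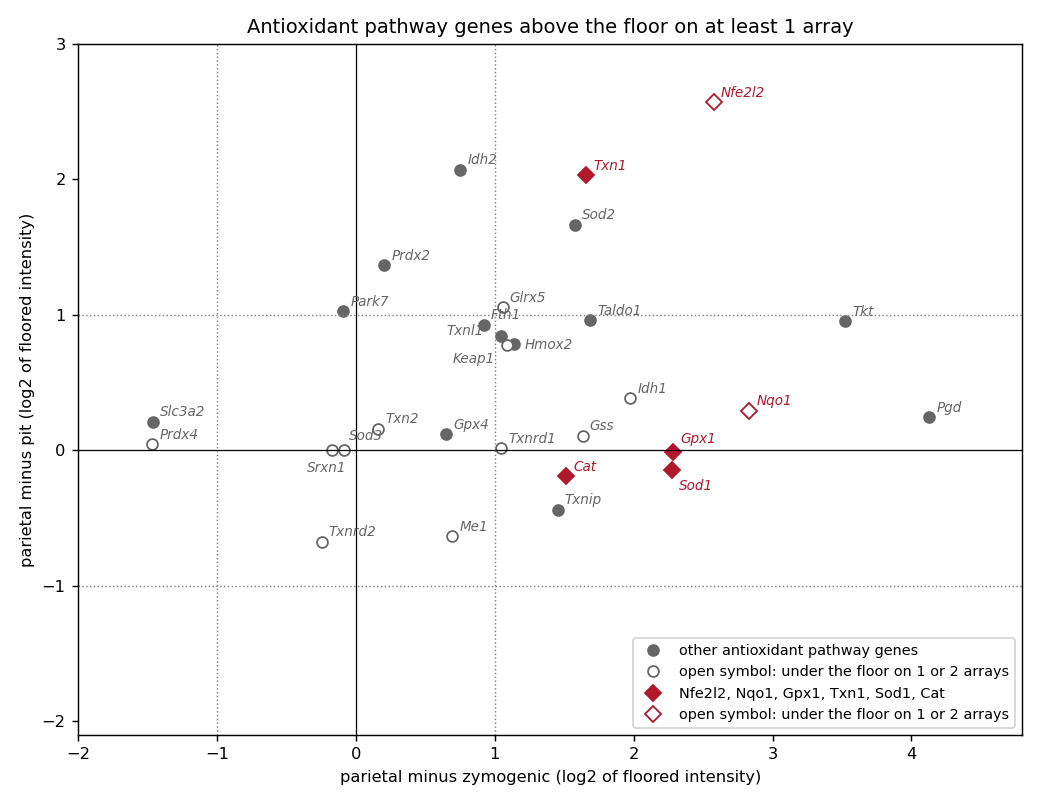
Parietal minus zymogenic (horizontal) and parietal minus pit (vertical) log2 differences of floored intensity for the pathway genes above the floor on at least 1 array, with dotted lines at 2-fold. Pgd, Nqo1, Gpx1 and Sod1 lie far to the right with small vertical values, Nfe2l2, Txn1 and Sod2 lie at the upper right, and Prdx4 and Slc3a2 lie to the left.

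The median over the 6 genes above the floor was 2.28 for parietal minus zymogenic, 0.14 for parietal minus pit and -2.0 for zymogenic minus pit, beside 0.29, 0.085 and -0.13 over all genes so filtered. The 4 genes above the floor on all 3 arrays (Gpx1, Txn1, Sod1 and Cat) had medians of 1.97, -0.078 and -2.0, beside 0.64, 0.29 and -0.21 over the 1186 genes. By their median, these genes thus stood farthest from the median gene in the differences from the zymogenic array. Txn1 did not, being 1.74 above the median of the 1186 genes for parietal minus pit and 1.02 for parietal minus zymogenic. Nfe2l2 was 2.28 and at least 1.94 above it.

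Against both other arrays at once, 2 of the 8 genes (Nfe2l2 and Txn1) were at least 2-fold above on the parietal array, where 7.49% of 4138 genes were, and 0 below, where 0.387% were. On the zymogenic array 0 were above, where 6.91% were, and 4 (Nqo1, Gpx1, Sod1 and Cat) below, where 11.1% were. On the pit array 0 were above and 0 below, where 5.78% and 2.61% of genes were. Of the 50 other pathway genes with a probe set, 24 were above the floor somewhere. On the zymogenic array 6 of these (Gss, Txnrd1, Txnip, Pgd, Tkt and Idh1) were at least 2-fold below both others and 2 (Slc3a2 and Prdx4) above. On the parietal array 2 (Glrx5 and Sod2) were above and 0 below, and on the pit array 3 (Prdx2, Park7 and Idh2) were below and 0 above. With quantile normalization Glrx5 and Sod2 no longer passed on the parietal array, where 3.34% of all genes did. Then 4 genes (Gss, Pgd, Tkt and Idh1) stayed below on the zymogenic array, where 7.83% of all genes were. On the pit array Park7 no longer passed, and 2 (Prdx2 and Idh2) stayed below, where 2.80% of all genes were. With scaling to 1 median, 3 (Pgd, Tkt and Idh1) stayed below on the zymogenic array, where 7.04% of all genes were. Glrx5 and Sod2 again did not pass on the parietal array, where 2.47% did. On the pit array Idh2 alone was then below and Me1 above, where 1.95% and 9.68% of all genes were. With scaling to BioB and BioC 18 were above on the parietal array, where 31.3% of all genes so filtered were. Slc3a2 and Prdx4 then no longer passed on the zymogenic array. They joined Prdx2, Park7 and Idh2 below both others on the pit array, where 3.41% of all genes were. Between the 4 scalings, parietal minus pit changed sign for Pgd, Idh1, Me1, Gss, Gpx4, Txnrd1, Txnrd2 and Txnip, parietal minus zymogenic for Prdx2, Park7, Gpx4 and Txnrd2, and zymogenic minus pit for Txnl1.

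Pit markers were lowest for zymogenic cells, as Nqo1, Gpx1, Sod1, Cat, Pgd and Tkt were. Their sum was 24777, 143 and 24634 for parietal, zymogenic and pit cells, and the part of pit cells in the parietal values was not tested. Nfe2l2, Txn1 and Sod2 differed from that sum, with pit values at 23.3, 68.3 and 32.5, below 139, 279 and 103 on the parietal array. Single pit markers did so too, as Gkn1, Gkn2 (7987 and 2723) and Lypd8 (4723 and 1050) were higher in parietal than in pit cells. Muc5ac, Tff1, Psca, Krt20 and Psapl1 were lower. The part of pit cells in the parietal values of Nfe2l2, Txn1 and Sod2 was not tested either. The parietal markers, at 5720, 1322 and 366, had a higher sum on the zymogenic than on the pit array, as Prdx2, Park7 and Idh2 did, and the part of parietal cells in the zymogenic values was not tested.

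The scaling of the arrays bears on all differences, since the spiked bacterial transcripts BioB and BioC had a geometric mean of 299.8 with parietal RNA, 700.3 with zymogenic RNA and 700.6 with pit RNA. The controls did not agree, as the Cre control had close means of 9453, 9117 and 9268. Which of them gives the better scaling was not tested. Scaled to BioB and BioC, Nfe2l2, Nqo1, Gpx1, Txn1, Sod1 and Cat were each at least 2-fold brighter for parietal cells than for both other lineages, where 31.3% of all genes so filtered were. Of all genes, 41.7% then exceeded the zymogenic array 2-fold on the parietal array and 37.5% the pit array. Quantile normalization and scaling to 1 median made the differences from the parietal array smaller or more negative instead. Parietal stayed above zymogenic for each of the 6 genes under the 4 scalings, with the lowest value being 0.78 for Cat and the highest 3.88 for Nqo1. For Nfe2l2 and Nqo1 the zymogenic value was raised to the floor under each scaling, so that this sign could not change. With quantile normalization and with 1 median, however, 4 genes in place of 6 were at least 2-fold above zymogenic, as Txn1 (0.98 and 0.92) and Cat (0.97 and 0.78) were not. The share of all genes was 13.9% and 12.3%. On the zymogenic array 3 genes in place of 4 were then below both others, Cat no longer passing, beside 7.83% and 7.04% of all genes. Parietal minus pit was 1.84 to 3.63 for Nfe2l2, whose pit value lay at or under the floor, so that its sign could not change. For Txn1 it kept its sign, at 1.53 to 3.26. It did not for Nqo1, Gpx1, Sod1 and Cat. For these it was 1.03 to 1.52 with the BioB and BioC controls and -0.69 to -0.21 with 1 median. Quantile normalization put Sod1 lower still, at -1.11. Zymogenic minus pit was -1.47 or lower for Nqo1, Gpx1, Sod1 and Cat under each of the 4.

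Differences were also expressed against the median gene above the floor on all arrays, which removes a common shift for genes above the floor on both arrays. Parietal minus zymogenic was then 1.64 for both Gpx1 and Sod1, 1.02 for Txn1 and 0.87 for Cat. It was at least 2.19 for Nqo1 and at least 1.94 for Nfe2l2, whose zymogenic values were under the floor, so that a common shift is not removed for them. Parietal minus pit was 2.28 for Nfe2l2 and 1.74 for Txn1, and between -0.48 and 0.0013 for the other 4. As deposited, parietal minus pit spanned 2.76 on the log2 scale over the 6 genes, from Cat to Nfe2l2, whose pit value lay at the floor.

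**Figure D4:**
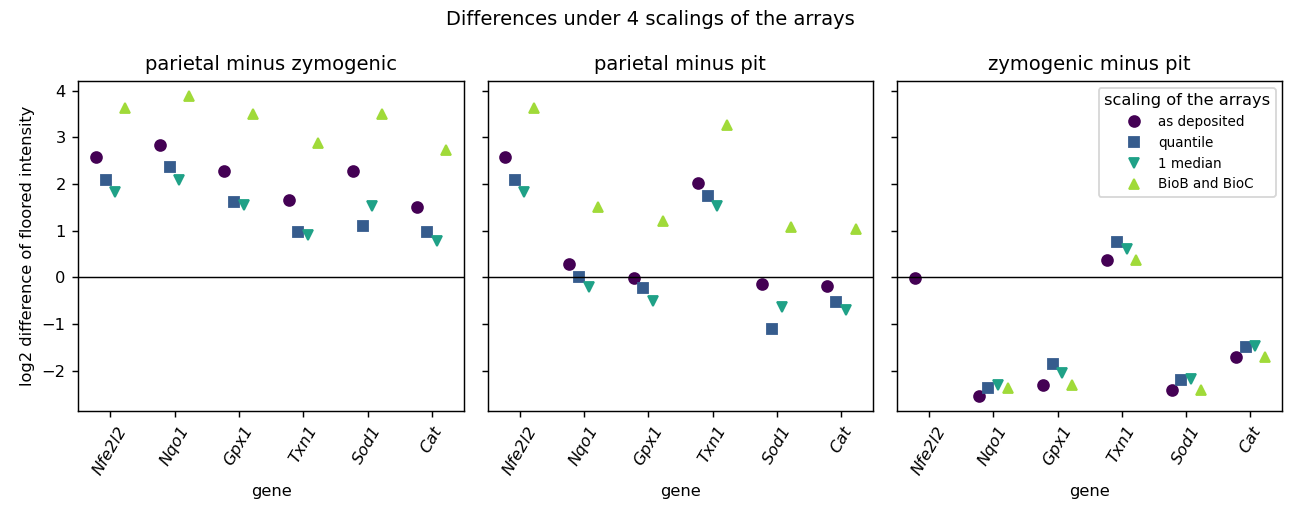
Log2 differences of the 6 genes above the floor for the 3 pairs of arrays, as deposited and after 3 other scalings, 1 symbol each. Parietal minus zymogenic is above 0 under all 4, parietal minus pit crosses 0 for Nqo1, Gpx1, Sod1 and Cat, and zymogenic minus pit is far below 0 for the same 4 genes.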

How the data were processed

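The deposited file holds 1 intensity per probe set and array on a linear scale, as the authors deposited it, with 45101 probe sets. How they were summarised, background-corrected and scaled the sources used here do not say. Values run from 0 with medians of 4.50, 4.81 and 4.64 for parietal, zymogenic and pit cells. The design text speaks of total RNA and the molecule label of nuclear RNA. Probe sets were named through the platform's gene table. Of 35890 listed, 34958 name 1 gene and 932 several, which were left out, and 34754 of the probe sets naming 1 gene were matched to RefSeq (GRCm38.p6) for names. A gene took the values of its brightest probe set on average, which favours the brightest array.

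The floor was the 95th percentile of the receptor intensities, taken on the array where it was highest. Call thresholds were 2-fold, or 4-fold as an alternative. No test was run. Genes were named by a rule: all members, then, in each pathway list, genes 2-fold above or below both other arrays and the 2 brightest others. The members, lists and rules were chosen with earlier results of these data known. Calculations used Python 3.11.15, numpy 2.4.6, pandas 2.3.3 and matplotlib 3.10.9 and were tested on simulated data. Alternatives were quantile normalization, scaling to 1 median or to BioB and BioC, other floors, a pseudocount, other probe set choices and a 4-fold threshold.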

Additional observations from a re-analysis of the deposited data

How the results depend on the processing

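No paired analysis was possible because each lineage has 1 array. The number of arrays limits every value, and genes near the floor (Nfe2l2 on the pit array, the further probe sets of Sod1 and Cat) are the least precise. No difference of a gene that was at least 2-fold changed sign under any alternative that gave it a value. Where the lower value was raised to the floor, as in most settings for Nfe2l2 and Nqo1 on the zymogenic array, the sign could not change. With quantile normalization, the median of parietal minus zymogenic was 1.36. Then 1 gene (Txn1 no longer counting against zymogenic) was above both others on the parietal array, beside 3.34% of all genes. Sod1 as the 1 gene was at least 2-fold higher on the pit than on the parietal array, beside 10.9%. On the pit array 1 gene was above both others, beside 7.05%. With 1 median, parietal minus zymogenic was 1.54, parietal minus pit -0.36 and 1 gene was above both others on the parietal array, beside 2.47% of all genes. With BioB and BioC, the medians were 3.19 and 1.15, over 8 genes since Hmox1 and Gpx2 then passed the floor, and 6 genes exceeded the pit array 2-fold on the parietal array and 6 exceeded both others, beside 37.5% and 31.3% of all genes. With the mean over probe sets, parietal minus zymogenic was 1.14 with 3 genes at least 2-fold higher, beside 12.4% of all genes. Zymogenic minus pit was -0.89 with 2 genes lower on the zymogenic array, beside 11.3%. On the parietal array 1 gene was above both others and on the zymogenic array 2 were below both, beside 3.65% and 5.67%. This mean takes in further probe sets that lie at the floor. With a floor of 868 (99th percentile of receptors), Sod1 alone of these genes was above it, and 81 of all genes were on at least 1 array. The medians were 0.95 (parietal minus zymogenic) and -1.09 (zymogenic minus pit). For parietal cells 0 genes were 2-fold higher than for zymogenic or pit cells, beside 47.1% and 33.3% of all genes. On the zymogenic array 1 was lower than on the pit array and 0 were below both others, beside 27.4% and 17.3%. At 4-fold, 1 gene (Nfe2l2) was above both others on the parietal array, beside 1.16% of all genes. With probe sets specific to 1 transcript, Cat had 0.081 for parietal minus zymogenic, as its remaining probe set is near the floor. The causes were not tested beyond what the construction of an alternative shows.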
